A study of Homo sapiens with 8 samples.

Results

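Cadherins are calcium-dependent adhesion proteins that join neighbouring cells, and catenins are the cytoplasmic proteins that tie classical cadherins to actin. The 10 genes examined here encode 7 cadherins (CDH1, CDH2, CDH3, CDH6, CDH11, CDH13 and CDH17) and 3 catenins (CTNNA1, CTNNB1 and CTNND1). They were chosen by name, as rows of a deposited gene table with 58870 rows, and all 10 names were found. Of these, 8 passed the filter on low counts, and CDH11 and CDH13 had 0 counts in every library. The usual group name, classical cadherins, does not cover all members. CDH13 is held in the membrane by a lipid anchor and CDH17 has a very short cytoplasmic tail, so neither carries the catenin-binding tail of the others.

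In an adherens junction, beta-catenin (CTNNB1) binds the far end of the cadherin tail and alpha-catenin (CTNNA1), which reaches to actin. p120-catenin (CTNND1) binds the tail near the membrane and slows removal of the cadherin from the cell surface. Epithelial cells rely on E-cadherin (CDH1), and a shift from E-cadherin towards N-cadherin (CDH2) is a well-known mark of epithelial-mesenchymal transition in carcinomas.

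The samples were 8 RNA libraries of CFPAC-1 (an established line from human pancreatic ductal adenocarcinoma), with 4 libraries of cells carrying an empty vector and 4 of cells carrying an ADRA2A transgene. ADRA2A encodes the alpha-2A adrenergic receptor. All cells were grown for 72 h in IMDM with 10% FBS and 1% penicillin and streptomycin, and none received a drug. The promoter driving the transgene, and whether the replicates were separate transductions, clones or cultures, were not given in the sources used here, so p-values measure the spread between these libraries, which may be technical.

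Libraries held between 14427040 and 17528910 counts, and no 2 of them were identical. ADRA2A itself had 0 counts in the 4 empty-vector libraries and 112, 142, 154 and 172 counts in the ADRA2A libraries. Against a floor of 3 counts in each empty-vector library, ADRA2A was at least 49.1-fold higher. Duct epithelial markers were abundant, summing to between 11194 and 12311 CPM (counts scaled to a common library size) in every library. One of the 7, CFTR, stayed between 4 and 20 counts and did not pass the filter. Fibroblast markers summed to at most 2.09 CPM and endothelial markers to at most 3.35 CPM. Of the 5 leukocyte markers CD3E was at 0 and PTPRC at no more than 4 counts, whereas LYZ and CD68, which epithelial cells can also express, made most of their sum of 121 to 133 CPM (empty vector) and 199 to 212 CPM (ADRA2A). The part of these markers in the results below was not tested.

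In the ADRA2A cells 4 of the 8 members tested were called higher and 2 lower (edgeR quasi-likelihood test, Benjamini-Hochberg adjustment over 14785 genes, threshold 0.05). Among all genes tested 42.7% were called, 21.6% higher and 21.1% lower, so a call alone sets no member apart. The epithelial cadherins CDH1 and CDH3 fell, CDH17, CDH6, CTNND1 and CDH2 rose, and CTNNA1 and CTNNB1 were not called. CDH17 rose more than 3-fold from a very low level, and no other called member changed by a larger share than CDH3, which fell by 20.8%. The median log2 fold change of the 8 members was 0.08, beside 0.00 over all genes tested. For 6 of the 8 members no library of one group lay within the range of the other, beside 39.2% of all genes tested.

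**Figure D1:**
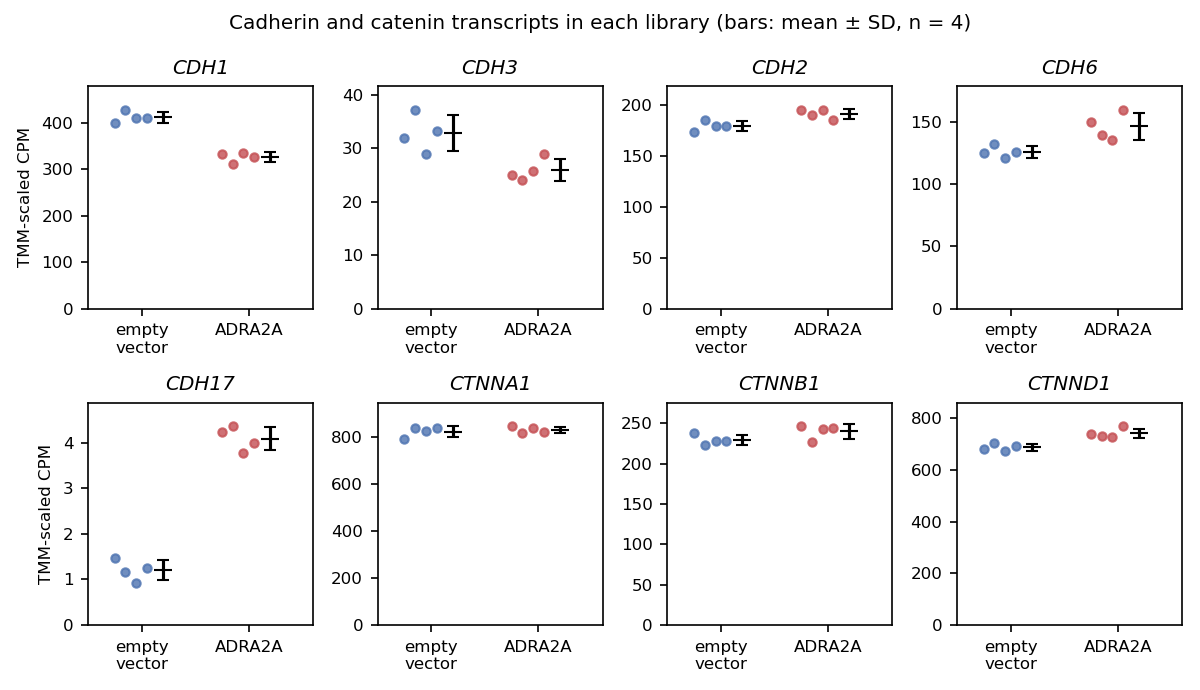
TMM-scaled CPM (vertical axes, each from 0) of the 8 detected members in every library, blue for empty vector and red for ADRA2A, with the group mean ± SD (n = 4) as black bars. CDH1 and CDH3 lie lower in all ADRA2A libraries, CDH17 lies higher in all of them, and the points of CTNNA1 and CTNNB1 overlap between the groups.

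CDH1 (ENSG00000039068.19, chromosome 16, 68737292 to 68835537, plus strand, GRCh38) encodes E-cadherin, the main cadherin of epithelial junctions. It stood at 400.0, 429, 410.4 and 410.2 CPM in empty-vector replicates 1 to 4. The ADRA2A libraries gave 334, 312, 335 and 327 CPM. Every ADRA2A library was thus below every empty-vector library, and the spread within a group was small. The mean went from 412 ± 11.9 to 327 ± 10.9 CPM (SD, n = 4 each). CDH1 fell by 20.7%, a log2 fold change of -0.33 ± 0.03 (SE) at an adjusted p-value of 1.68e-07 (edgeR). The 95% interval of the log2 fold change ran from -0.41 to -0.26. Of all genes tested, 97.3% had a lower mean CPM than CDH1, and 74.1% had a smaller absolute log2 fold change.

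CDH3 (ENSG00000062038.14, chromosome 16, 68636189 to 68727468, plus strand, GRCh38) encodes P-cadherin, a cadherin of basal epithelial layers. Its 4 empty-vector libraries held 31.9, 37.2, 29.0 and 33.2 CPM. In the ADRA2A libraries CDH3 was at 25.1, 24.0, 25.7 and 28.8 CPM. The highest ADRA2A library lay just under the lowest empty-vector library. CDH3 fell by 20.8% (log2 fold change -0.34 ± 0.08, SE, adjusted p = 0.00135, edgeR), close to the size seen for CDH1 but with a wider interval, -0.50 to -0.18. CDH3 and CDH1 are neighbours on the same strand, with 9823 bases between the end of the one and the start of the other.

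CDH2 (ENSG00000170558.9, chromosome 18, 27932879 to 28177946, minus strand, GRCh38) encodes N-cadherin, the cadherin of neural and mesenchymal cells. It was well expressed in these carcinoma cells, at 174, 186, 180 and 180 CPM in the empty-vector libraries. The ADRA2A libraries held 195, 190.2, 196 and 186 CPM. The groups only just fail to overlap, since the highest empty-vector and the lowest ADRA2A library were both at 186 CPM. CDH2 rose by 6.59% (log2 fold change 0.09 ± 0.04, SE, adjusted p = 0.0431, edgeR). This call was lost in 8 of 15 alternatives. Its adjusted p-value was 0.101 with upper quartile factors, 0.0847 with no filter on low counts, and up to 0.132 when empty-vector replicate 1 was left out. Leaving out empty-vector replicate 3 or 4, or ADRA2A replicate 1, 2 or 3, ended the call too, with adjusted p-values of 0.082, 0.0986, 0.104, 0.0636 and 0.106.

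CDH6 (ENSG00000113361.13, chromosome 5, 31193686 to 31329146, plus strand, GRCh38) encodes K-cadherin, a type II cadherin of developing kidney that several carcinomas express. The empty-vector libraries held 125, 132, 121 and 126 CPM. The ADRA2A libraries held 150.1, 139.8, 136 and 159.7 CPM, all above the empty-vector libraries. The ADRA2A libraries were also the more spread of the groups (126 ± 4.76 against 146 ± 10.7 CPM, SD, n = 4 each). CDH6 rose by 16.2% (log2 fold change 0.22 ± 0.05, SE, adjusted p = 0.00109, edgeR), with an interval of 0.12 to 0.32.

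CDH17 (ENSG00000079112.10, chromosome 8, 94127162 to 94217303, minus strand, GRCh38) encodes liver-intestine cadherin, which in adults is found mainly in intestinal epithelium and in gastrointestinal and pancreatic tumours. It had 25, 17, 16 and 19 counts in the empty-vector libraries, or 1.46, 1.15, 0.929 and 1.24 CPM. The ADRA2A libraries had 61, 66, 66 and 63 counts, or 4.22, 4.36, 3.78 and 3.98 CPM. The lowest ADRA2A library was thus far above the highest empty-vector library. CDH17 rose 3.39-fold, a log2 fold change of 1.76 ± 0.21 (SE) with an adjusted p-value of 1.29e-06 (edgeR) and an interval of 2.5-fold to 4.61-fold. Only 15% of the genes tested had a lower mean CPM, while 98.6% had a smaller absolute log2 fold change. CDH17 has no value in the fit that kept only genes averaging 50 counts or more.

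CDH11 (ENSG00000140937.14, chromosome 16, 64943753 to 65126112, minus strand) encodes OB-cadherin, a cadherin of osteoblasts and fibroblasts. CDH13 (ENSG00000140945.17, chromosome 16, 82626965 to 83800640, plus strand) encodes T-cadherin. Neither had a count in any of the 8 libraries, which together held 127337492 counts. With a floor of 3 counts over all libraries, either gene was at no more than 0.0236 CPM, for counting error only.

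Turning to the catenins, CTNNA1 (ENSG00000044115.21, chromosome 5, 138610967 to 138935034, plus strand, GRCh38) was the most abundant member in CPM. It stood at 795, 839.6, 825 and 841 CPM in the empty-vector libraries. In the ADRA2A libraries CTNNA1 was at 847, 818, 839 and 821 CPM, within the same range apart from the first. The difference was within the spread between replicates (log2 fold change 0.01 ± 0.03, SE, adjusted p = 0.792, edgeR), and its interval, -0.05 to 0.07, leaves room for a change of no more than 5.2% upwards or 3.46% downwards.

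CTNNB1 (ENSG00000168036.18, chromosome 3, 41194741 to 41260096, plus strand, GRCh38) is both a junction protein and the co-activator of Wnt target genes. The empty-vector libraries held 238, 223, 228 and 228 CPM. The ADRA2A libraries held 246, 227, 243 and 245 CPM, so replicate 2 lay among the empty-vector libraries and the others above them. CTNNB1 was not called (log2 fold change 0.07 ± 0.04, SE, adjusted p = 0.156, edgeR), with an interval of -0.01 to 0.14.

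CTNND1 (ENSG00000198561.13, chromosome 11, 57753243 to 57819546, plus strand, GRCh38) stood at 682, 707, 676 and 692 CPM in the empty-vector libraries. The ADRA2A libraries held 739.5, 733, 729 and 769.6 CPM, and none reached down to the empty-vector range. CTNND1 rose by 7.79% (log2 fold change 0.11 ± 0.03, SE, adjusted p = 0.00656, edgeR), so p120-catenin transcripts were higher while those of E-cadherin were lower.

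Upstream sequence was held in the RefSeq promoter table for 3 of the 10 members, CDH2, CTNNA1 and CTNNB1, and there were no entries for CDH1, CDH3, CDH6, CDH11, CDH13, CDH17 and CTNND1. The 250 bases before a start are shown for CDH2 and CTNNB1, whose transcripts are set against CDH1 further on, at chr18:28177131-28177380 (minus strand) and chr3:41199255-41199504 (plus strand) of GRCh38.p14. They run 5′ to 3′ on the gene's strand, and capitals mark CG dinucleotides.
CDH2: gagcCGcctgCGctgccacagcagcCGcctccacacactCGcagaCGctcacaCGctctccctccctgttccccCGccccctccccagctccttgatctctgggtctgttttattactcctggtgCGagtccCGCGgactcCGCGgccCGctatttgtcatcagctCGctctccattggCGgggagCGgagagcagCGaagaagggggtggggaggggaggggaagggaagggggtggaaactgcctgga
CTNNB1: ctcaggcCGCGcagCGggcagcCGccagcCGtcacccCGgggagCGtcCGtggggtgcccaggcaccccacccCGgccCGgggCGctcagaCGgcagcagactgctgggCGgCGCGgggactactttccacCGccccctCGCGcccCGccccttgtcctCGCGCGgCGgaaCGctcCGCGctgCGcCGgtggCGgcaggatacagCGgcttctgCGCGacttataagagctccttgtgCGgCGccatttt

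The CTNNB1 window held 34 CG dinucleotides and 74.4% G or C, and the CDH2 window shown 17 and 66.0%. A second CDH2 window in the table, before a start further inside the gene, held 4 and 42.0%. Over all windows of this length in the table the medians were 11 and 58.0%, so both windows shown lay above them and the other CDH2 window below. The E-box letters CACCTG, searched on both strands because SNAIL and ZEB factors bind them, matched in 0 of the 7 windows of the 3 members and in 17.5% of all 35116 windows. The cyclic AMP response letters TGACGTCA matched in 1 of the 7 and in 1.65% of all windows. The match began 21 bases before a CTNNA1 start that lies inside the gene, in the window chr5:138875150-138875399 (46.4% G or C). The other CTNNA1 windows had no match. All 7 windows lie within the annotated bounds of their genes. The match and its absence describe only these windows.

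**Figure D2:**
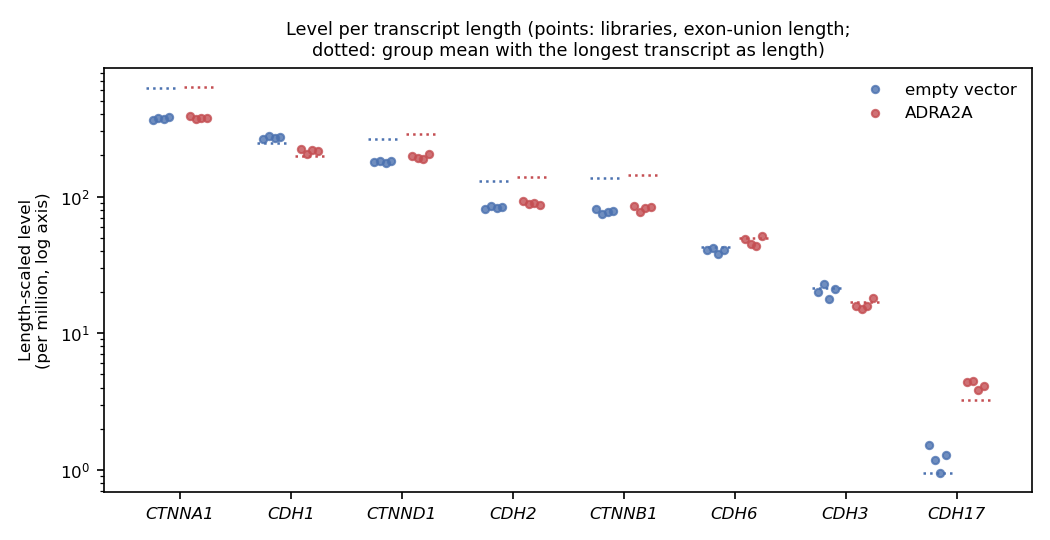
Level of each detected member per base of transcript (vertical log axis, scaled to CPM-like units after division by length), with points for single libraries and the exon union as length, and dotted lines for group means with the longest transcript as length. CTNNA1 is highest and CDH17 lowest under both lengths, and CDH1 is the one abundant member whose red points lie below the blue.

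To compare levels between genes, counts were divided by the length of each gene's merged exons and scaled to the same total in every library, a per-length analogue of CPM. On this length-scaled measure the empty-vector cells had most CTNNA1 (372 ± 9.26), then CDH1 (270.2 ± 6.02), CTNND1 (180.4 ± 3.79) and CDH2 (83.5 ± 1.63). CTNNB1 (77.8 ± 2.85), CDH6 (40.3 ± 1.51), CDH3 (20.4 ± 2.09) and CDH17 (1.23 ± 0.239) followed, all as SD with n = 4. The order was the same in the ADRA2A cells, where CDH1 was at 215 ± 8.27 and CTNND1 at 195 ± 6.2. The places of CDH1 and CTNND1, and of CDH2 and CTNNB1, were exchanged with the longest transcript as length, so these neighbours have no firm order. Plakoglobin (JUP), the close relative of beta-catenin that can take its place on the tail, was at 559 ± 21.3 in the empty-vector cells, above CTNNA1 with this length but below it (572 against 623) with the longest transcript.

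The shares of the 5 cadherin members with counts were taken from these levels. Their sum leaves out other cadherins found in these cells, among them CDH24 (34.5 and 34.9 CPM, not called), CDHR2, CDH16 and CDH4. Summed over the 5 members, the length-scaled level went from 416 ± 10.7 to 372 ± 12.2 (SD, n = 4 each). CDH1 made up 65.0% ± 0.383 of that sum in the empty-vector cells and 57.8% ± 0.702 in the ADRA2A cells. The share of CDH2 went from 20.1% ± 0.213 to 24.0% ± 0.717 and that of CDH6 from 9.70% ± 0.191 to 12.6% ± 0.840. CDH17 contributed 0.296% ± 0.0589 and then 1.13% ± 0.0921. With the longest transcript as length the CDH1 share was 56.0% and then 48.6%. The summed level of the 3 catenins was 630.3 ± 11.1 and 654 ± 15.5.

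Whether members changed unequally was tested on the log2 ratio of 6 members to CDH1 within a library, which do not depend on library scaling apart from the 0.5 CPM added. The CDH2/CDH1 log2 ratio was -1.20, -1.21, -1.19 and -1.19 in the empty-vector libraries and -0.77, -0.71, -0.78 and -0.82 in the ADRA2A libraries. All ADRA2A values were higher, by 0.43 on average (two-sided exact permutation test, p = 0.0286, adjusted p = 0.0343 over the 6 ratios). The p-value of 0.0286 is the smallest that 4 against 4 libraries can give. N-cadherin transcripts were thus higher relative to E-cadherin transcripts, with separate log2 fold changes of 0.09 for CDH2 and -0.33 for CDH1.

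The 3 catenins were higher relative to CDH1, which every ratio shares as its denominator. Their own log2 fold changes were 0.07 (CTNNB1), 0.01 (CTNNA1) and 0.11 (CTNND1), beside -0.33 for CDH1. These 3 ratios thus mostly restate the fall of CDH1 and are not separate results on the catenins. The log2 ratio to CDH1 was higher in the ADRA2A libraries by 0.40 for CTNNB1, 0.35 for CTNNA1 and 0.44 for CTNND1, with no overlap between the groups (exact permutation test, adjusted p = 0.0343 each). For CDH17 this log2 ratio went from -7.93 ± 0.21 to -6.16 ± 0.12 (SD, n = 4 each), a difference of 1.78 with the same adjusted p-value. With 0.1 rather than 0.5 CPM added, the CDH17 difference was 2.04. CDH3 was the exception. Its ratio to CDH1 was -3.64 ± 0.12 in the empty-vector cells and -3.64 ± 0.10 in the ADRA2A cells (exact permutation p = 1.0), and the libraries overlapped.

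**Figure D3:**
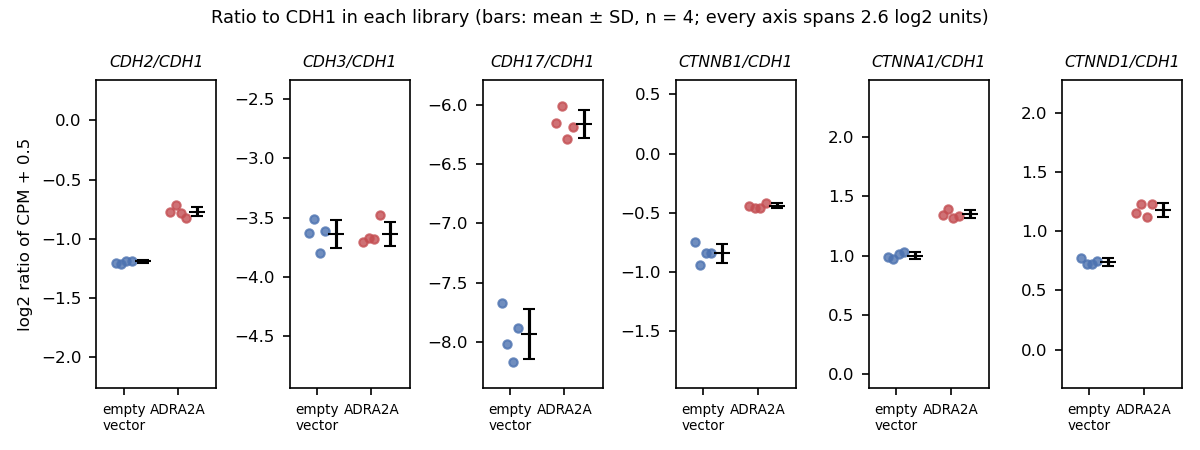
Log2 ratio of each of 6 members to CDH1 in every library (points, blue for empty vector and red for ADRA2A), with the group mean ± SD (n = 4) as black bars and vertical axes of equal span. The groups are apart for CDH2, CDH17 and the 3 catenins and overlap for CDH3.

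Among the 21 other genes named CDH or CDHR, 5 were tested and 16 were not. The 16 had at most 12 counts in a library, and endothelial VE-cadherin (CDH5) had 1 count in 1 of the 8 libraries. Called higher were 2 genes, CDH16 and CDHR2, and called lower 2, CDH4 and CDHR3, beside 21.6% higher and 21.1% lower among all genes tested. The median log2 fold change of the 5 tested was 0.02. CDH16, the kidney-specific cadherin and the nearest relative of CDH17, had 19, 15, 10 and 13 counts in the empty-vector libraries. The ADRA2A libraries had 128, 86, 99 and 125 counts of CDH16. CDH16 rose without overlap (log2 fold change 2.97 ± 0.23, SE, adjusted p = 3.26e-09, edgeR), though it reached the filter in all libraries of the ADRA2A group only. CDHR2, a protocadherin that links the tips of microvilli, rose from 3.82 ± 0.742 to 20.5 ± 3.06 CPM (SD, n = 4 each, log2 fold change 2.42, adjusted p = 2.57e-11, edgeR).

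R-cadherin (CDH4), the closest relative of CDH2, went the other way. It held 10.7, 12.1, 12.1 and 7.59 CPM in the empty-vector libraries and 2.70, 2.84, 3.32 and 2.78 CPM in the ADRA2A libraries. CDH4 fell by 1.86 on the log2 scale (SE 0.16, adjusted p = 1.14e-08, edgeR), with no overlap. CDHR3 was called lower at an adjusted p-value of 0.0438 (log2 fold change -0.61 ± 0.24, SE), a call lost with DESeq2, with limma voom and without empty-vector replicate 2, 3 or 4 or ADRA2A replicate 1, 2 or 3 (adjusted p from 0.012 to 0.16 over its alternatives). Its libraries overlapped between the groups.

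Of 27 other adherens junction genes, 24 were tested, 7 were higher and 5 lower, with a median log2 fold change of 0.05. Among all genes tested 21.6% were higher and 21.1% lower, so these counts do not set the list apart. JUP rose from 693 ± 29.1 to 797 ± 13.7 CPM (SD, n = 4 each, log2 fold change 0.20, adjusted p = 4.89e-05, edgeR). ADAM10, the protease that sheds the outer part of E- and N-cadherin, rose by 0.22 on the log2 scale (adjusted p = 2.49e-05, edgeR). The lower calls with the smallest p-values were those of alpha-catulin (CTNNAL1), a relative of alpha-catenin, at -0.72 (adjusted p = 2.71e-11), and of the LIM protein AJUBA, which binds alpha-catenin, at -0.55 (adjusted p = 2.19e-10, both edgeR). Proteins that tie junctions to actin did not move together. Alpha-actinin-1 (ACTN1, -0.25, adjusted p = 9.89e-07) and ZO-1 (TJP1, -0.20, adjusted p = 0.000114) fell, and afadin (AFDN, 0.12, adjusted p = 0.0195) rose (edgeR, log2 fold changes). Vinculin (VCL, 0.04) and EPLIN (LIMA1, 0.02) were not called. Of the nectins, NECTIN1 rose (0.27, adjusted p = 0.000277, edgeR), and NECTIN2, NECTIN3 and NECTIN4 were not called.

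Of 16 genes that control or assist beta-catenin, 14 were tested, 5 were higher and 4 lower, with a median log2 fold change of -0.06. Beside these counts, 21.6% of all genes tested were called higher and 21.1% lower, so a call alone sets no gene of the list apart. CSNK1A1, the kinase that starts beta-catenin phosphorylation, rose by 0.21 (adjusted p = 5.24e-05), and BCL9, a co-activator, by 0.32 (adjusted p = 7.26e-05, edgeR, log2 scale). TCF7, which encodes a DNA-binding partner of beta-catenin, had a log2 fold change of -0.67 (adjusted p = 2.81e-05, edgeR). PYGO1, which reached the filter in all libraries of the empty-vector group only, fell from 1.63 ± 0.486 to 0.323 ± 0.113 CPM (SD, n = 4 each, adjusted p = 3.48e-05, edgeR). Without empty-vector replicate 3 or without ADRA2A replicate 4 the number called higher was 3. TCF7L2, a partner of the same family at a higher CPM than TCF7, rose from 73.2 ± 1.503 to 81.0 ± 6.29 CPM (SD, n = 4 each, log2 fold change 0.15, adjusted p = 0.0255, edgeR). The TCF7L2 libraries overlapped between the groups, since ADRA2A replicate 2, at 73.4 CPM, lay within the empty-vector range. FBXW11, a ubiquitin ligase subunit that recognises beta-catenin, rose by 0.24 on the log2 scale (adjusted p = 9.73e-05, edgeR), whereas its paralogue BTRC was not called. The scaffold genes APC and AXIN1 were not called.

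**Figure D4:**
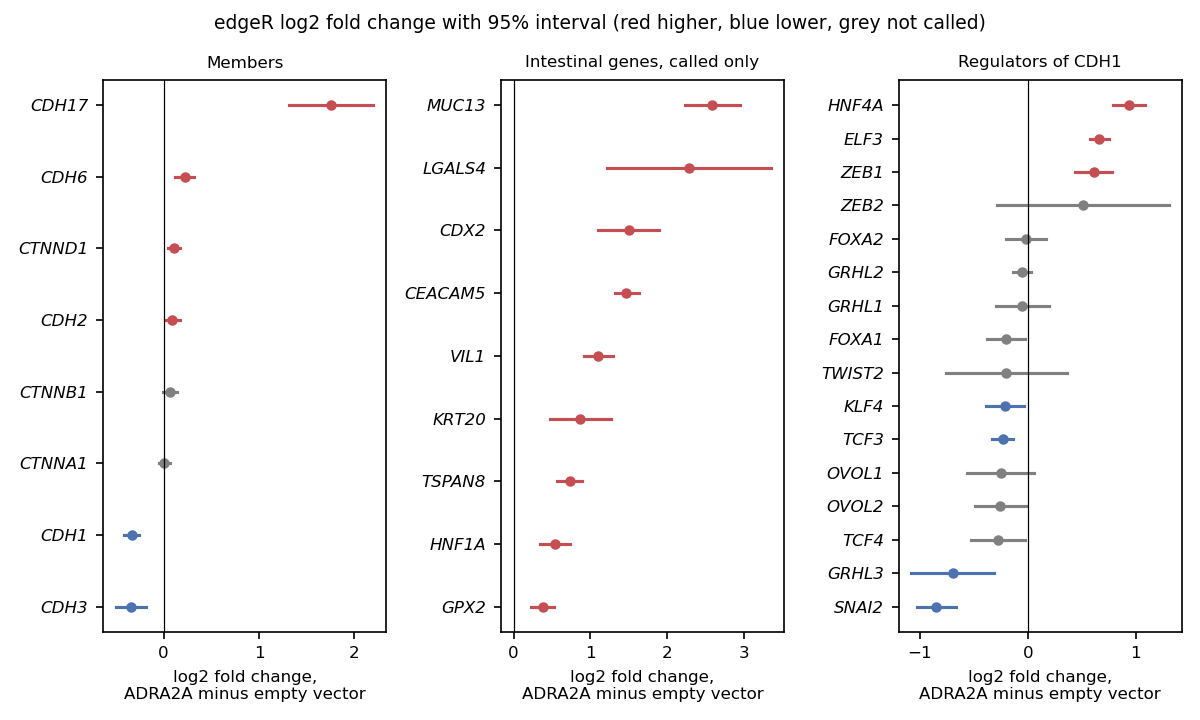
Log2 fold change (horizontal axes, ADRA2A minus empty vector) with its 95% interval for the members tested, the 9 intestinal epithelial genes that were called and the regulators of CDH1 that were tested. The middle panel leaves out the 1 intestinal gene tested but not called. The regulators of CDH1 lie on both sides of 0.

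Of 18 transcription factors known to act on CDH1, 16 were tested, 3 were higher and 4 lower, and the list's median log2 fold change was -0.20. Beside this, 21.6% of all genes tested were higher and 21.1% lower. The repressors did not move together. SNAI2 (Slug) had 360, 326, 437 and 352 counts in the empty-vector libraries and 202, 194, 227 and 177 counts in the ADRA2A libraries. SNAI2 thus lay lower in every ADRA2A library and fell by 0.85 on the log2 scale (adjusted p = 1.33e-07, edgeR). ZEB1 rose, from 15.1, 16.4, 16.3 and 18.8 CPM to 23.9, 23.4, 26.2 and 27.7 CPM (log2 fold change 0.61, adjusted p = 5.18e-06, edgeR). ZEB2 was not called (0.51 ± 0.38, SE, adjusted p = 0.306, edgeR), SNAI1 had at most 15 counts in a library and TWIST1 had 0. TCF3, an E-box factor, had a log2 fold change of -0.23 (adjusted p = 0.000359, edgeR).

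Epithelial factors of the same list also differed. HNF4A, a factor of liver, gut and classical pancreatic tumours, averaged 16.1 ± 0.795 CPM with the empty vector and 31.0 ± 1.94 CPM with ADRA2A (SD, n = 4). Its log2 fold change was 0.94 (adjusted p = 1.77e-09, edgeR). ELF3 rose by 0.66 on the log2 scale (adjusted p = 7.73e-11, edgeR). GRHL2, a direct activator of CDH1, was not called (-0.05 ± 0.04, SE). GRHL3 and KLF4, with log2 fold changes of -0.69 and -0.21, were the other genes called lower (adjusted p = 0.00456 and 0.0484, edgeR). The libraries of KLF4 overlapped between the groups, and those of GRHL3 did not. Over the alternatives 3 to 7 genes of this list were called lower.

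Since CDH17 is best known from the intestine, 17 intestinal epithelial genes were examined beside it. Of these 10 were tested, 9 were higher and 0 lower, with a median log2 fold change of 0.99. For comparison, 21.6% of all genes tested were called higher and 21.1% lower. CDX2, the intestinal homeobox factor known to bind the CDH17 promoter, held 1.82, 2.92, 1.57 and 1.77 CPM in the empty-vector libraries. In the ADRA2A libraries CDX2 was at 5.33, 5.94, 5.73 and 5.69 CPM, so all 4 lay above the empty-vector range (log2 fold change 1.5 ± 0.19, SE, adjusted p = 2.95e-06, edgeR). Villin (VIL1), the actin bundler of microvilli, rose from 10.7 ± 0.982 to 23.05 ± 1.99 CPM (SD, n = 4 each, adjusted p = 5.04e-09, edgeR). The membrane mucin MUC13 and the surface antigen CEACAM5 had log2 fold changes of 2.59 and 1.47 (adjusted p = 3.68e-10 and 5.02e-12, edgeR). LGALS4, among the genes called higher, reached the filter in all libraries of the ADRA2A group only. The other 7 had at most 9 counts in a library, among them CDX1, FABP1 and GPA33.

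The genes whose levels followed the members most closely over the 8 libraries were sought among tested genes averaging 10 CPM or more. For CDH1 these were CXCL14 (Pearson r = 0.992), ATF4 (0.990) and CCNG2 (0.990), out of 10159 genes. For CDH17 they were CAMK1D (0.995), SERPING1 (0.995) and CTSB (0.994), out of 10160. These coefficients are a description: the points are the same 8 libraries, they fall into 2 groups, and any gene that differs steadily between the groups scores high.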

How the data were processed

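RNA of 8 CFPAC-1 samples was sequenced. The authors deposited estimated counts (some entries hold decimals), as 1 table with genes as rows, not scaled between samples. Per the submitters' processing notes, cutadapt, STAR, RSEM, DESeq2 and the build hg38 were used; the annotation, strand setting and versions are not given in the sources used here, so overlapping genes could share counts. The 8 value columns matched sample titles and 0 were left over.

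Counts were rounded to whole numbers, filtered with edgeR's filterByExpr (at least 0.645 CPM in 4 libraries) and scaled by TMM. All 14785 remaining genes were fitted with edgeR 4.0.16 (glmQLFit, glmQLFTest; R 4.3.3), with group as the only term, and p-values were adjusted by the Benjamini-Hochberg method. SE is the absolute log2 fold change over the square root of F. CPM are TMM-scaled. Lengths and positions come from GENCODE 44 (GRCh38), matched by Ensembl identifier for 58517 of 58870 rows. Upstream sequences are RefSeq's. The code was tested on simulated data.

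Members and lists were chosen with earlier results of these data known. Named genes were the members, ADRA2A, JUP, SNAI1, SNAI2, ZEB1, ZEB2, TWIST1, VIL1, CDX2, in each list the 2 genes with the smallest p-value per direction, and for CDH1 and CDH17 the 3 best correlated genes; others were chosen after their values were seen. 1 intestinal gene, tested but not called, is counted but not reported here. Alternatives were DESeq2 1.42.0, limma voom 3.58.1, RLE and upper quartile factors, other filters, a replicate block, another pseudocount or length, and leaving out each library.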

Additional observations from a re-analysis of the deposited data

Results flagged for a closer look

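Among 29 sets of 4 libraries checked for a stray value (members, ADRA2A and ratios), 1 was found, where chance gives about 5%. CTNNB1 in ADRA2A replicate 2 was at 227 CPM, away from the 243 to 246 CPM of the other ADRA2A libraries. Without that library the CTNNB1 log2 fold change was 0.09 and its adjusted p-value 0.056 (edgeR), still not called.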

How the results depend on the processing

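CDH1, CDH3, CDH6 and CTNND1 kept their call and direction in 15 of 15 alternatives, and CDH17 in 14 of 14. The log2 fold change of CDH2 was 0.08 with upper quartile factors and 0.09 with no filter, where its call was lost, and lay between 0.08 and 0.11 when single libraries were left out; the cause was not tested. The number of other CDH and CDHR genes called lower was 1 with DESeq2, with limma voom and among genes averaging 50 counts or more, and 1 to 2 without single libraries. In the list on beta-catenin the number called higher was 3 to 5 without single libraries. Same-numbered libraries did not deviate together (correlations -0.04 to 0.07, and 2 of 8 libraries correlated best with their own number). No pairing by number was seen, though so few libraries cannot show that there was none. With the replicate block 3247 genes were called higher and 3153 lower, and 7 rather than 4 regulators of CDH1 were called lower. In the paired sign-flip test, the replicate block for ratios to CDH1, differences were 0.43 (CDH2), 1.78 (CDH17), 0.40 (CTNNB1), 0.35 (CTNNA1) and 0.44 (CTNND1), where no p-value under 0.125 is possible. Without single libraries they were 0.41 to 0.44, 1.7 to 1.86, 0.37 to 0.43, 0.33 to 0.36 and 0.43 to 0.46, where none under 0.0571 is possible. With the longest transcript as length, length-scaled levels in empty-vector and ADRA2A cells were 248 and 198 (CDH1), 129.6 and 139 (CDH2), 0.946 and 3.24 (CDH17), 623 and 631 (CTNNA1), 136 and 143 (CTNNB1), 264 and 286 (CTNND1) and, for CDH6 in empty-vector cells, 42.7. The shares of the sum over the cadherin members with that length were added after the data were seen. CDH17, with 16 to 66 counts a library, had the fewest counts of the detected members, and no value among genes averaging 50 counts or more.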

Other observations

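CDH3 and CDH1 lie side by side on chromosome 16 and fell by a similar share, so the tested genes around them were read as well; they were chosen after the members' values were seen. ZFP90, between 68530090 and 68576072 on the near side of CDH3, had a log2 fold change of 0.07 (SE 0.06, adjusted p = 0.403, edgeR). TANGO6, from 68843531 on the far side of CDH1, had a log2 fold change of -0.04 (SE 0.09, adjusted p = 0.711, edgeR). Further out, the sphingomyelinase gene SMPD3 rose from 2.71 to 8.05 CPM and the hyaluronan synthase gene HAS3 went from 60.9 to 35.5 CPM (adjusted p = 2.1e-06 and 3.34e-09, edgeR). DERPC, which overlaps the end of HAS3, had a log2 fold change of -0.38 (SE 0.14, adjusted p = 0.0308, edgeR). It has the same bounds and strand as CHTF8 (log2 fold change -0.07), so the counts of DERPC and CHTF8 may not be independent. SLC7A6OS, PRMT7 and CHTF8 were not called, nor were the genes directly beside the pair. Whether the position of CDH3 and CDH1 had a part in their fall was not tested.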
